A study of Mus musculus with 185 samples.

Results

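The genes described here are 9 of the 45661 listed for single epidermal Langerhans cells (LCs): Epcam, the cadherins Cdh1 and Cdh17, the tight junction membrane genes Cldn1 and F11r, the catenins Ctnnb1, Ctnnd1 and Ctnna1, and the scaffold gene Tjp1. They were taken by name as genes of epithelial adhesion and junctions, with earlier results of these data known, and all 9 were listed. The measures are the level in reads per 1000000 reads of the cell or group (CPM), the share of cells with at least 1 read, and the correlation between genes over cells, each by origin of the cell and by plate.

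The cells came from the epidermis of bone marrow chimeras (BMC). B6 hosts were CD45.1, carried Cd207DTR (the diphtheria toxin (DT) receptor expressed from the Cd207 locus), were lethally irradiated and received CD45.2 WT bone marrow. They were then inoculated with a low dose of DT, 5 ng per gram of body weight, and LCs were sorted 2 mo after DT. Host cells, labelled E, are embryonic LCs (eLCs), carry Cd207DTR and remained after irradiation and DT, whereas donor cells, labelled M, are monocyte-derived LCs (moLCs) without that allele. Both origins shared the irradiated, DT-treated host, and the age of the mice is not given in the sources used here. The sort took single cells that were lineage-negative and positive for CD11c, CD11b, CD24, MHCII and CD326. CD326 is the EpCAM protein, so that every cell had been chosen for the product of Epcam. No animal is named for any cell. Each origin was therefore 1 sample, and no test between origins was possible. Intervals of levels and ratios below cover the counting of reads only, and those of shares the drawing of cells only. None covers the spread between animals.

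EpCAM is a homophilic membrane glycoprotein of epithelia that LCs also carry, and it associates with claudins at cell contacts. E-cadherin, the product of Cdh1, binds E-cadherin on keratinocytes and anchors LCs among them. Its cytoplasmic tail holds p120-catenin (Ctnnd1) and beta-catenin (Ctnnb1), and alpha-catenin (Ctnna1) links the complex to actin. Claudin-1 (Cldn1) and the junctional adhesion molecule JAM-A (F11r) span the membrane at tight junctions, where ZO-1 (Tjp1) is their scaffold, and LCs form such junctions with keratinocytes when they extend dendrites towards the skin surface. Cadherin-17 (Cdh17) is a cadherin known mainly from the intestine, with a short cytoplasmic tail that does not bind catenins.

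Factors of the ZEB and SNAI families repress Cdh1 and other epithelial genes through E-boxes of the sequence CACCTG, and reads of Zeb1 were found in 94.2% of moLCs and in 92.4% of eLCs. The 250 bases before the RefSeq start sites (GRCm38.p6) of the members were therefore searched for CACCTG and its complement CAGGTG. RefSeq windows were held for 6 of the 9 genes, 8 windows in all, and not for Cdh1, Cdh17 and Ctnna1. Matches stood in 2 genes, Epcam with 2 and F11r with 1. They are shown 5′ to 3′ on the plus strand, the strand of both genes, with the matches in capitals, at chr17:87635729-87635978 for Epcam and at chr1:171437311-171437560 for F11r.
Epcam: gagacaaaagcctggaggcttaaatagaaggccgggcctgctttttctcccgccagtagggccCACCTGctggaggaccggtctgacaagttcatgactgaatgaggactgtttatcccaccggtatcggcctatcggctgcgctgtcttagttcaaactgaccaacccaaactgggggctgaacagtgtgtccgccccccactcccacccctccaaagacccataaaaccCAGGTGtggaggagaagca
F11r: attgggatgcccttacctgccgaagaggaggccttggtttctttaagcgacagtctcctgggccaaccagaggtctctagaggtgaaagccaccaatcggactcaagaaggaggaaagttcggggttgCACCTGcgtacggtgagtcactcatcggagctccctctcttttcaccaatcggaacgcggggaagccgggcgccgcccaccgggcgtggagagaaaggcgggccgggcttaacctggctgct
The matches of Epcam begin 187 and 19 bases before the start site and that of F11r 122 bases before it. Of all 32851 windows of this length, 17.2% held at least 1 match. No match was found in the windows of Cldn1, Ctnnb1, Ctnnd1 and Tjp1. These matches are a description of the sequence, and binding was not measured.

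After 3 cells with over 5% of reads on mt- genes were set aside, 182 remained. Plate 1 gave 67 moLCs and 29 eLCs, and plate 2 gave 36 and 50. They held between 432614 and 4525429 reads each, with a median of 4026 genes read in moLCs and 4488 in eLCs. Each of 13 Langerhans cell markers was read in 25% or more of the cells of 1 origin. One moLC of plate 1 had no Cd207 read and the lowest summed level of these markers, 12234 CPM, where moLCs had a median of 231092 CPM and eLCs of 215001 CPM. It held reads of 6 of the 9 genes, and leaving it out moved no log2 ratio in all cells by more than 0.06, and within plate 1 took that of Ctnnd1 from 0.23 to 0.08. Markers of keratinocytes, the cells that carry most junction genes in the epidermis, were near 0. None of the 16 was read in 25% of the cells of either origin, Krt1, Krt15, Krt6a, Dsg3, Dsp and Kprp had no read, and the whole list summed to 30.5 CPM in moLCs and to 9.96 in eLCs, its median over cells was 0 in both, and the highest cells had 686 and 134 CPM. Sfn was read in 13 moLCs and 3 eLCs, and Krt14 in 11 and 3, whereas Col17a1 was read in 2 and 5. Over cells, the rank correlation of the members with this sum, averaged over the 4 groups of origin and plate, lay between -0.21 (F11r) and 0.07 (Cdh17), and within single groups between -0.57 (Cldn1 in moLCs of plate 2) and 0.26 (Tjp1 in eLCs of plate 1).

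Differences in size were described by a rule applied to all genes. A gene was tested when 25% or more of the cells of 1 origin had a read of it. It passed when the origins' summed CPM stood 2-fold or more apart, the same way, in the pooled cells and on each plate. Of the 9 genes, 8 had the share asked for (Ctnnd1 just missed it, with 24.3% of moLCs), and 2 of these passed. Both, Cdh17 and Tjp1, were higher in eLCs, and none was higher in moLCs. Of the 6522 genes with that share, 2.02% passed in either direction and 1.21% passed as higher in eLCs. Since the 9 genes were chosen with earlier results of these data known, the comparison with all genes is not independent of the choice. The median log2 ratio of moLCs over eLCs was -0.10 over the 8 genes and -0.10 over the 6522. Under edgeR's TMM factors, which moved the ratios in all cells up by 0.10, neither gene passed, because Cdh17 was 1.99-fold apart within plate 2 and Tjp1 1.96-fold within plate 1. The split over all genes was 53 higher in moLCs and 79 higher in eLCs with total reads, and 71 and 62 with TMM factors. A looser rule was turned on the plates, asking for 2-fold the same way in both origins but not in the pooled cells. It was passed by 1.36% of the genes and by none of the 8.

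**Figure D1:**
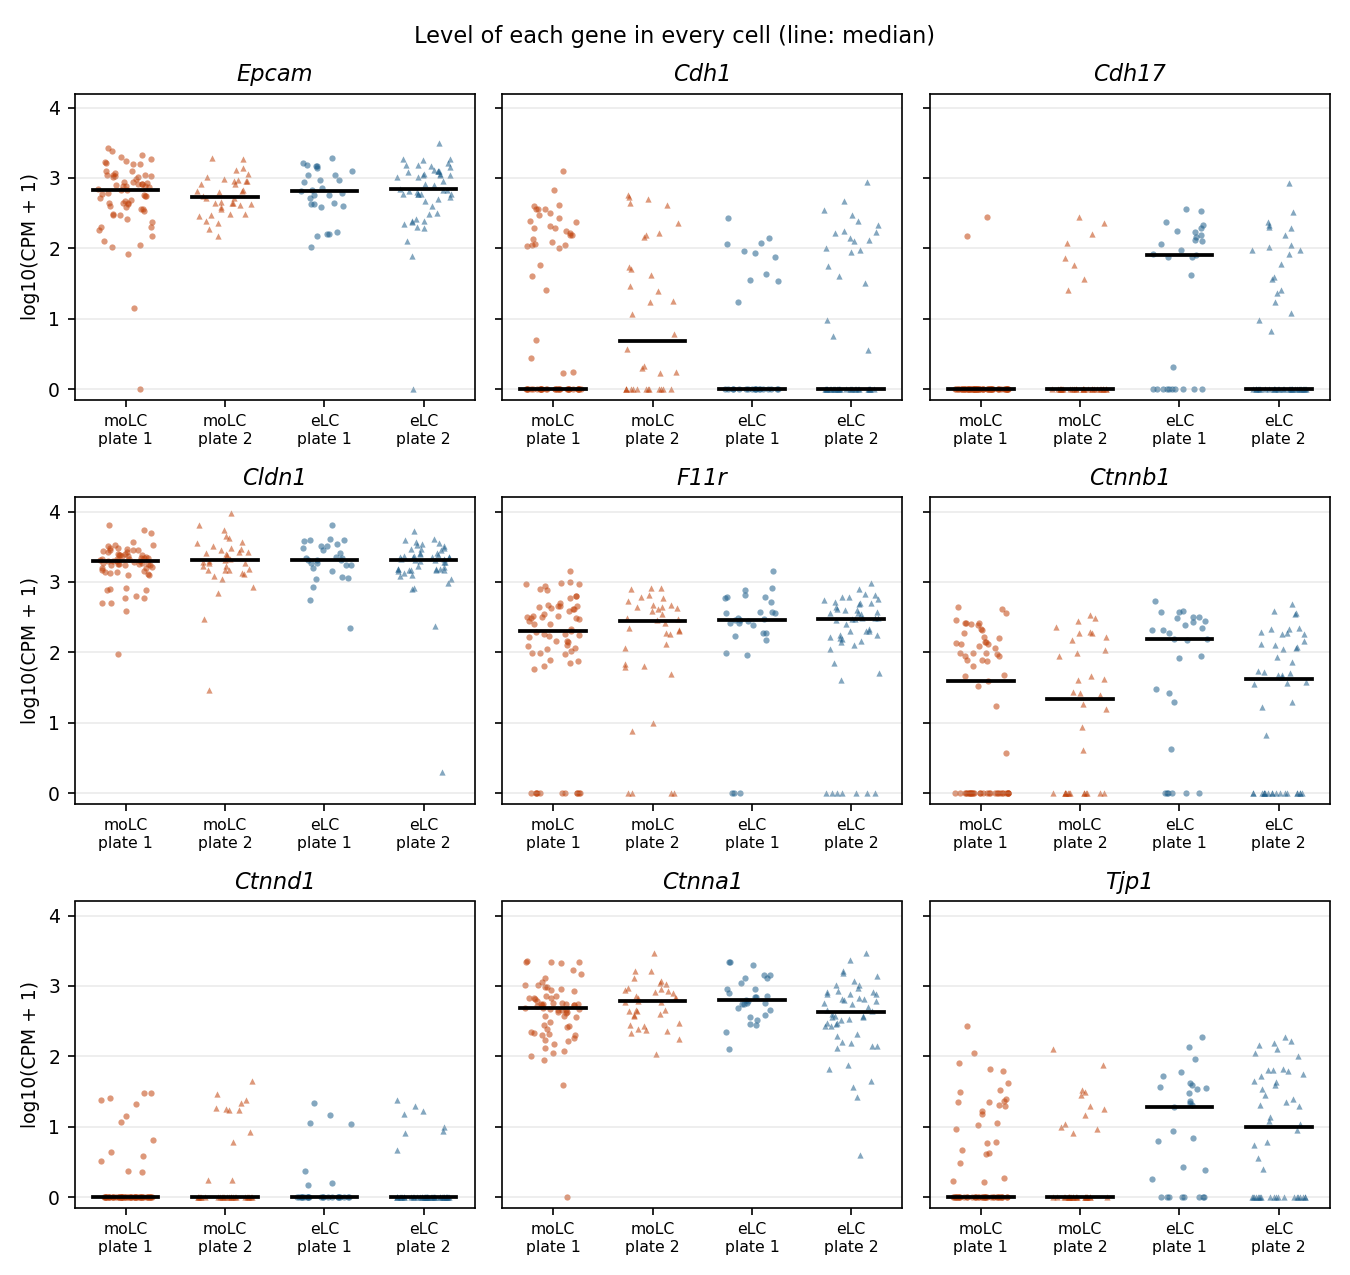
Level of each of the 9 genes in each of the 182 cells, as log10(CPM + 1), with moLCs in orange, eLCs in blue, circles for plate 1 and triangles for plate 2. Black lines are medians. Cldn1, Epcam and Ctnna1 form 1 band with almost no cell at 0, whereas Cdh1, Cdh17, Ctnnb1, Ctnnd1 and Tjp1 fall into cells with reads and cells at 0.

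Epcam (chromosome 17, 87635979 to 87651129 in GRCm38) had a read in all cells but 1 moLC and 1 eLC. Among moLCs the cell with the lowest level had 0 CPM, the median was 633 CPM and the highest cell 2709 CPM, and among eLCs these were 0, 681 and 3122 CPM. The ranges of both origins lay over each other almost whole. Summed over cells, the level was 756 CPM in moLCs (95% interval 753 to 759) and 807 CPM in eLCs (804 to 811), a log2 ratio of -0.09, with 0.06 within plate 1 and -0.30 within plate 2. The direction differed between plates, and with TMM factors the ratios of Epcam (0.01), Cldn1 (0.09) and F11r (0.08) in all cells turned positive. The sort on CD326 protein bounds what could be seen of Epcam, since cells low in the protein were not collected.

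The 2 cells without an Epcam read, although sorted as CD326-positive, were 1 moLC of plate 1 and 1 eLC of plate 2. The moLC had 2935 CPM of Cldn1, 625 CPM of F11r and 2096 CPM of Ctnna1, and the eLC had 5233, 479 and 930 CPM. Both thus held the other abundant members, and both held Cd207, at 48308 and 2572 CPM, and reads of the MHCII genes H2-Ab1 and Cd74.

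Cdh1 (chromosome 8, 106603351 to 106670246) was read in 54.4% of moLCs (95% interval 44.3 to 64.2), against 40.5% of eLCs (29.6 to 52.1), intervals that overlap. Within plates the shares were 49.3% of moLCs and 37.9% of eLCs on plate 1, and 63.9% and 42% on plate 2. Among moLCs the lowest level was 0, the median 0.99 and the highest 1243 CPM, and among eLCs 0, 0 and 863 CPM. The summed level was 96.6 CPM in moLCs and 69.1 CPM in eLCs. The log2 ratio of 0.48 was uneven between plates, at 1.54 within plate 1 and 0.03 within plate 2. One eLC of plate 2 with 3594 reads gave 23.9% of all Cdh1 reads of the eLCs, and without it the ratio was 0.85 in all cells and 0.49 within plate 2. In the cells that had a read, the median was 139 CPM in moLCs and 108 CPM in eLCs, so cells at 0 and cells above 100 CPM stood side by side in each origin.

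Cdh17 (chromosome 4, 11758147 to 11817895) had the widest log2 ratio between origins of the 9 genes in all cells and within plate 1, whereas within plate 2 those of Tjp1 (-1.89) and Ctnnd1 (1.48) were wider. A read was found in 10 moLCs and in 40 of 79 eLCs, and the summed CPM was 5.26-fold higher in eLCs (log2 ratio -2.40, 95% interval -2.45 to -2.35). Within plate 1 the share was 2.99% in moLCs (0.36 to 10.4) but 65.5% in eLCs (45.7 to 82.1), and the levels were 6.70 and 94.9 CPM, which is 14.2-fold. Within plate 2 the shares were 22.2% (10.1 to 39.2) and 42% (28.2 to 56.8), and the levels 26.7 and 56.4 CPM, which is 2.11-fold. In these cells eLCs thus had the higher share and level on both plates. The share intervals do not overlap on plate 1 and overlap on plate 2. They take cells as replicates and are no test of the origins. The 2 plates differed in opposite directions within the origins. Plate 2 over plate 1 gave a log2 ratio of 1.998 in moLCs and -0.75 in eLCs.

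Cells with a Cdh17 read differed little in level between origins. In the 10 moLCs the lowest was 24.9, the median 133 and the highest 280 CPM, and in the 40 eLCs 1.05, 107 and 836 CPM. The median was higher in the moLCs that had a read, and the summed level was higher in eLCs. The gap in summed level therefore went with the number of cells that had a read, 9.71% against 50.6%, and these shares were 9.38% and 50.7% when each cell was thinned to 2052512 reads. The call within plate 2 rested on few cells. Leaving out any 1 of 6 eLCs of plate 2, which had 560 to 1558 Cdh17 reads each, took the log2 ratio within plate 2 to between -0.99 and -0.75, under 2-fold. After thinning, which leaves out the shallower cells, it was -0.53.

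Of the 10 moLCs with Cdh17 reads, 2 were on plate 1 and 8 on plate 2. Timd4, which encodes the phosphatidylserine receptor Tim-4 (reads in 20.4% of moLCs and in 75.9% of eLCs), was read in 6 of the 10 and in 16.1% of the 93 other moLCs. Edil3, the gene of a secreted integrin ligand, was read in 4 of the 10 and in 16.1% of the others, and Cdh1 in 9 of the 10 and in 50.5% of the others. With 10 cells these shares are coarse. Within eLCs of both plates the same split showed little for Timd4, read in 75% of cells with Cdh17 and 76.9% of cells without, and for Edil3 (77.5% and 82.1%). Cdh1 was read in 45% and 35.9%, with 47.4% and 20% on plate 1 and 42.9% and 41.4% on plate 2. Rps4l, a ribosomal protein gene copy, was read in 1 of the 10 moLCs and in 2.15% of the others. Hbegf, the mouse counterpart of the DT receptor, was read in 1 of the 10, where 87.5% of eLCs with Cdh17 and 87.2% of those without had an Hbegf read. The genes higher in moLCs that the study labelled, Clec4f and Casp4, were read in 2 and 3 of the 10. Of the other moLCs, 4.30% had an Hbegf read. Only eLCs carry Cd207DTR, and whether that allele gives Hbegf reads was not tested, so Hbegf does not place the 10 moLCs. The 1 of the 10 with Hbegf, a cell of plate 2, had 5266 reads of Timd4, 462 of Edil3 and 1488 of Rps4l. Its Cd207 level was 2555 CPM, where the median was 23839 CPM in moLCs and 1448 CPM in eLCs. Another of the 10, on plate 1, had the highest Cdh17 level (280 CPM) and a Cd207 level of 2873 CPM, but no read of Timd4, Edil3, Rps4l or Hbegf. Timd4, Edil3, Rps4l, Clec4f and Casp4 had been singled out by the study on the same cells. Hbegf was added for its relation to the transgene, with results of these data known.

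Cldn1 (chromosome 16, 26356642 to 26371841, minus strand) was read in every cell of both origins. The lowest, median and highest levels were 27.9, 1966 and 9429 CPM in moLCs and 0.97, 2070 and 6446 CPM in eLCs. The summed level was 2258 CPM in moLCs (2253 to 2264) and 2281 CPM in eLCs (2275 to 2287), a log2 ratio of -0.01, with -0.15 within plate 1 and 0.17 within plate 2. Its coefficient of variation over cells lay between 0.47 and 0.72 in the 4 groups of origin and plate and was the lowest of the 9 genes in 3 of them, while in moLCs of plate 2 that of Epcam was lower, at 0.64. Its relatives were almost silent. The table lists 25 claudin genes, of which 21 went unread, and besides Cldn1 a read was found only for Cldn9 (3 moLCs and 5 eLCs), Cldn12 (3 and 3) and Cldn19 (0 and 1). This count over the family was added after the values were seen.

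F11r (chromosome 1, 171437535 to 171464603) was read in 85.4% of moLCs (95% interval 77.1 to 91.6), against 87.3% of eLCs (78 to 93.8). Its lowest, median and highest levels were 0, 222 and 1436 CPM in moLCs and 0, 291 and 1421 CPM in eLCs, and the groups overlapped throughout. Summed levels were 322 and 327 CPM, a log2 ratio of -0.02, with -0.18 and 0.05 within the plates. Of the other JAM genes listed, Jam3 was read in 1 moLC and 1 eLC, and Jam2 in none.

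Ctnnb1 (chromosome 9, 120929216 to 120960507), whose product serves both E-cadherin and Wnt signalling, was higher in eLCs in all cells and on both plates but did not pass the rule. It was read in 57.3% of moLCs (95% interval 47.2 to 67), against 68.4% of eLCs (56.9 to 78.4). The lowest, median and highest levels were 0, 25.5 and 440 CPM in moLCs and 0, 52.2 and 542 CPM in eLCs. The summed levels of 83.8 and 129 CPM gave a log2 ratio of -0.63 (-0.65 to -0.60), with -0.999 within plate 1, barely under 2-fold, and -0.38 within plate 2. Ulk4 overlaps its exons on the other strand and had 74 reads in all, against 25161 reads of Ctnnb1 in moLCs and 28202 in eLCs.

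Ctnna1 (chromosome 18, 35118859 to 35254779) was read in all eLCs and in all moLCs but 1, far more often than Cdh1 and Ctnnb1, its partners in the cadherin complex. The lowest, median and highest levels were 0, 530 and 2910 CPM in moLCs and 3.04, 557 and 2964 CPM in eLCs. Summed levels were 659 and 711 CPM, a log2 ratio of -0.11, made up of -0.43 on plate 1 and 0.22 on plate 2. Lrrtm2 overlaps its exons on the other strand and had 995 reads. Whether the counting used strand is not stated, so reads of the overlapping exons cannot be told apart.

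Ctnnd1 (chromosome 2, 84600071 to 84650765, minus strand), which encodes p120-catenin and steadies cadherins at the membrane, was the least read of the 9. A read was found in 25 moLCs and 15 eLCs, and the highest cells had 44.1 and 23.2 CPM. Summed levels were 3.61 and 2.08 CPM, with a log2 ratio of 0.80 in the pooled cells, 0.23 on plate 1 and 1.48 on plate 2, and leaving out 1 cell moved the ratio within plate 1 to between -0.09 and 1.06. Ctnnd2, its paralog known from neurons, had reads in 70.9% of moLCs and in 75.9% of eLCs. Per kb of exons Ctnnd2 had 4.40 CPM in moLCs and 6.37 in eLCs, where Ctnnd1 had 0.49 and 0.28. Ctnnd2 was singled out after its values were seen.

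Tjp1 (chromosome 7, 65296165 to 65527781, minus strand) was the second gene to pass the rule. It was read in 38.8% of moLCs (95% interval 29.4 to 48.9), against 64.6% of eLCs (53 to 75). These intervals over cells do not overlap, which is no test of the origins. Within plate 1 the shares were 41.8% (29.8 to 54.5) and 72.4% (52.8 to 87.3), and within plate 2 they were 33.3% (18.6 to 51) and 60% (45.2 to 73.6). The direction was the same on both plates, the intervals overlapped within each, and here the plates differed less than for Cdh17.

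The lowest, median and highest Tjp1 levels were 0, 0 and 270 CPM in moLCs and 0, 10.1 and 185.3 CPM in eLCs, so the highest cell of all was a moLC. Summed levels were 12.6 CPM in moLCs (12.2 to 13) and 32.8 CPM in eLCs (32 to 33.6), a log2 ratio of -1.38 (-1.44 to -1.33), with -1.07 within plate 1 and -1.89 within plate 2. In the cells with a read the median was 17.7 CPM in moLCs and 33.3 CPM in eLCs, so for Tjp1 both the share and the level in cells with a read were higher in eLCs. Leaving out any 1 of 3 eLCs of plate 1, with 296 to 591 Tjp1 reads, took the ratio within plate 1 to between -0.95 and -0.76. Without 1 moLC of plate 1 with 848 reads, 22.5% of all Tjp1 reads in moLCs, the ratio in all cells was -1.74. Its paralog Tjp3 had reads in 3 moLCs and in no eLC.

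Cdh17 and Tjp1 did not mark the same cells. In eLCs, 27 of 79 cells had reads of both, 13 of Cdh17 alone, 24 of Tjp1 alone and 15 of neither. Tjp1 was read in 67.5% of the eLCs with Cdh17 and 61.5% of those without, and in moLCs 3 cells had reads of both.

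**Figure D2:**
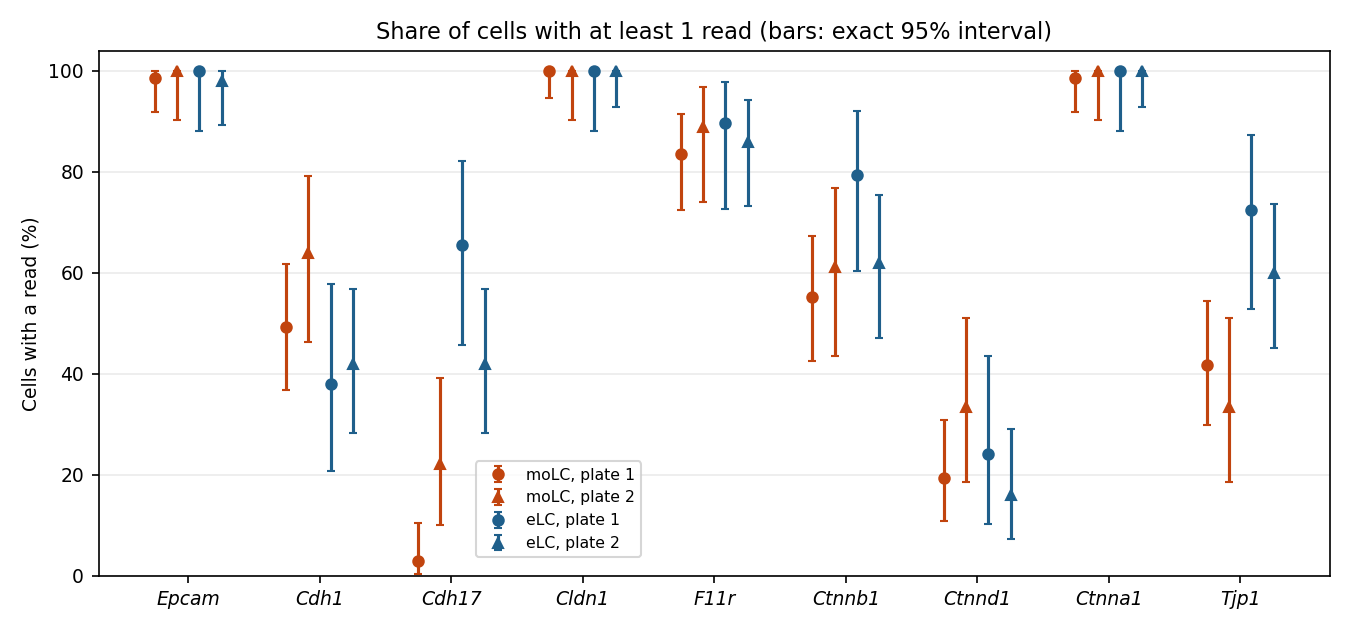
Share of cells with at least 1 read of each gene (y axis, percent) for moLCs (orange) and eLCs (blue) of plate 1 (circles) and plate 2 (triangles), with exact 95% Clopper-Pearson intervals. Cdh17 runs from 2.99% in moLCs to 65.5% in eLCs on plate 1, and Tjp1 is lower in moLCs than in eLCs on both plates, whereas Epcam, Cldn1 and Ctnna1 stand at 98% or more in all 4 groups.

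**Figure D3:**
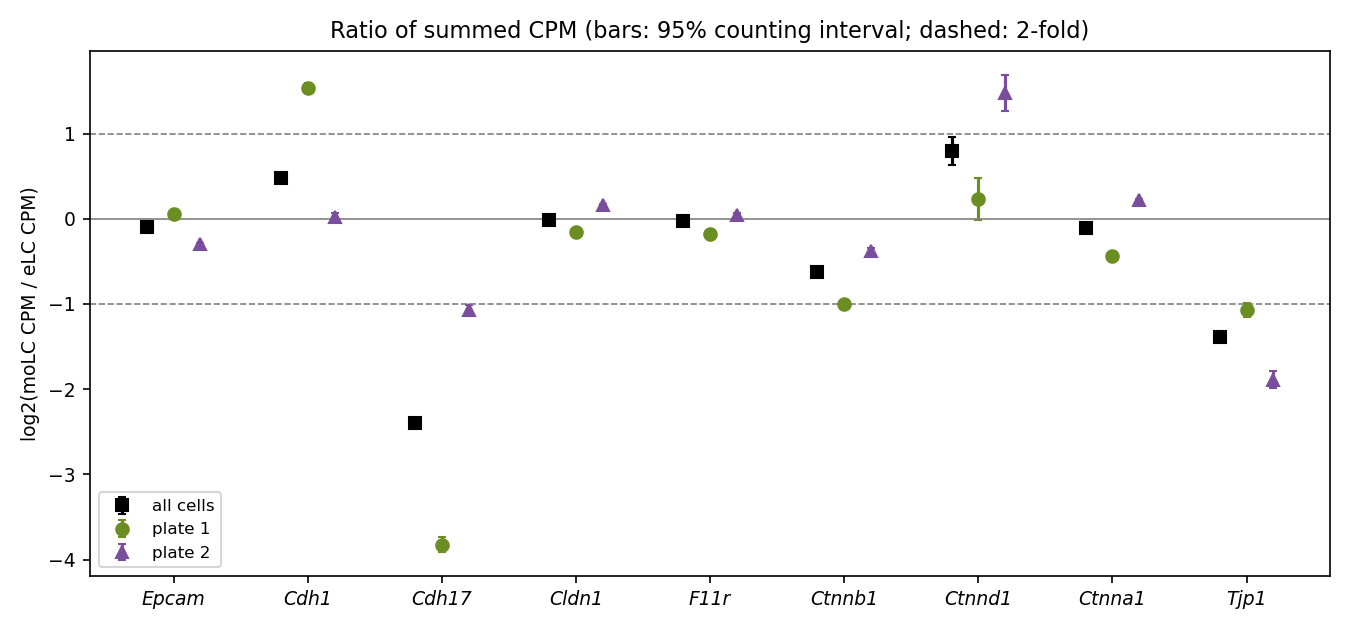
Log2 ratio of summed CPM in moLCs over eLCs for each gene in all cells (squares), plate 1 (circles) and plate 2 (triangles), with 95% counting intervals and dashed lines at 2-fold. Only Cdh17 and Tjp1 lie past -1 in all 3 values, whereas Epcam, Cldn1, F11r and Ctnna1 change sign between plates.

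Between genes, levels were compared per kb of merged exons. In moLCs and eLCs these were 467 and 471 CPM per kb for Cldn1, 344 and 368 for Epcam, 121 and 123 for F11r, and 102.6 and 111 for Ctnna1. These 4 were among the abundant genes, with more CPM per kb than 98.6% (Cldn1) to 93.3% (Ctnna1) of the genes tested in moLCs. Cldn1 lay above Epcam in all 4 groups of origin and plate, at 441 to 514 against 310 to 382 CPM per kb. In single cells, on the scale of CPM per kb, Epcam exceeded Cldn1 in 39 moLCs and 31 of 79 eLCs. F11r (111 to 141) and Ctnna1 (96.9 to 131) overlapped, and changed places when the longest transcript was used for the length, so their order was not resolved.

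The other 5 genes lay well below. Ctnnb1 had 16.1 CPM per kb in moLCs and 24.9 in eLCs, Cdh1 21.1 and 15.1, and Cdh17 3.05 and 16.1. Their ranges over the 4 groups, 14.4 to 34.1 for Ctnnb1, 7.34 to 21.3 for Cdh1 and 1.5 to 21.2 for Cdh17, overlap, and the order of the 3 differed between origins. Cdh17 was the lower of both cadherins in moLCs, while in eLCs the plates went opposite ways, with 21.2 for Cdh17 and 7.34 for Cdh1 on plate 1 and 12.6 and 20.4 on plate 2. Tjp1 (1.61 and 4.2) and Ctnnd1 (0.49 and 0.28) were last in both origins. The levels of the cadherin complex were thus unequal, with Ctnna1 above Ctnnb1 and Cdh1, and those above Ctnnd1, in each of the 4 groups. In single cells 20 moLCs and 11 eLCs had a Cdh1 read without a Ctnnb1 read, where a missed read and absent RNA cannot be told apart.

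**Figure D4:**
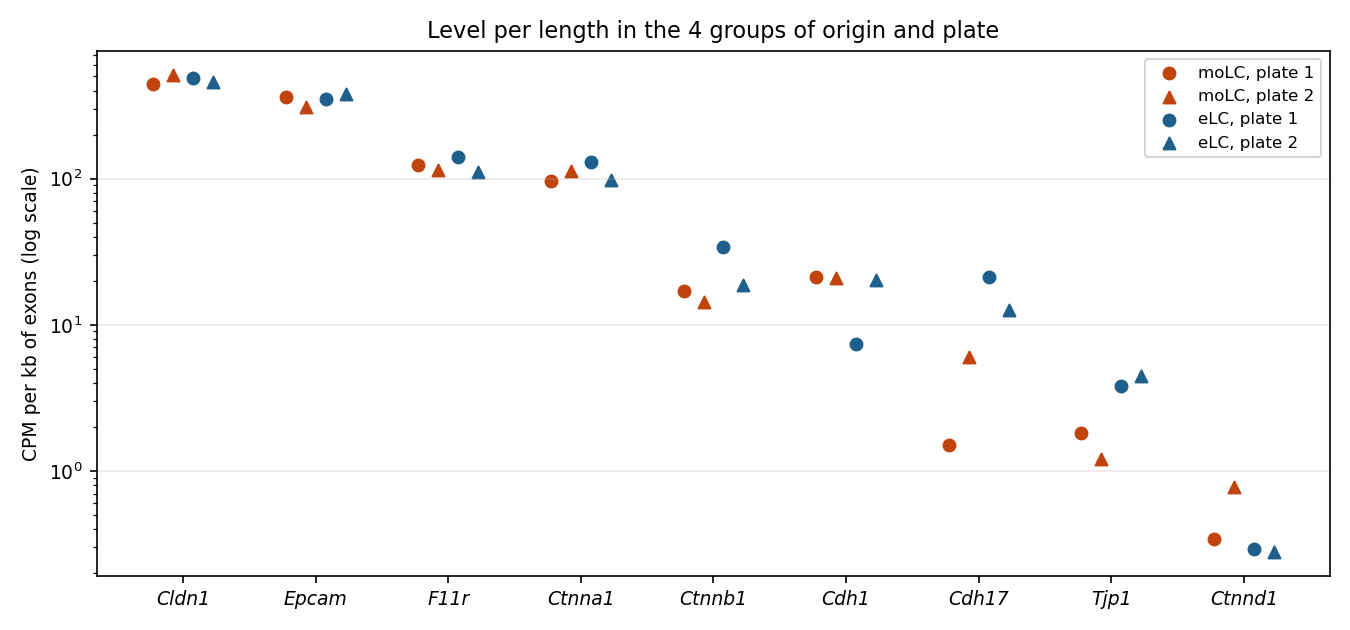
Level of each gene in CPM per kb of merged exons (y axis, log scale) for moLCs (orange) and eLCs (blue) of plate 1 (circles) and plate 2 (triangles), ordered by the mean of the 4 groups. Cldn1 and Epcam stand above 300 and Ctnnd1 below 1, and Cdh17 spreads most between groups, from 1.5 to 21.2.

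A wider list of 121 genes of adherens and tight junctions, EpCAM partners, beta-catenin turnover, E-cadherin repressors and receptors, and desmosomes and gap junctions was examined for context. The table held 119 of them, 40 reached the 25% of cells asked for, and none passed the rule. The median of their log2 ratios was -0.09. Of the adherens genes 14 of 28 had that share, of the tight junction genes 6 of 35, of the EpCAM partners and proteases 11 of 14, of the beta-catenin genes 7 of 17, of the repressors and receptors 2 of 8, and of the desmosome and gap junction genes 0 of 17. Of all 45661 genes listed, 6522 had that share.

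Among the EpCAM partners, the tetraspanin Cd9 was read in every cell, at 648 CPM per kb in moLCs and 798 in eLCs (log2 ratio of CPM -0.30). The protease matriptase, St14, which cleaves EpCAM, was read in 86.4% of moLCs and all eLCs and had a log2 ratio of 0.00, and its inhibitor Spint1 was read in 63.1% and 69.6%, with -0.14. Among tight junction genes the highest per kb were Ybx3, a binding partner of ZO-1 (77.3 and 69.96 CPM per kb), and occludin, Ocln (25.4 and 36.6). Ocln, with a log2 ratio of -0.53, had reads in 46.6% of moLCs and in 67.1% of eLCs.

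Among adherens genes the GTPases Cdc42 and Rac1 and the actin regulator Vasp were highest, with log2 ratios of -0.10, -0.14 and 0.03. Of the beta-catenin list these were Myc, a target gene (-0.32, but 0.48 within plate 1 and -1.28 within plate 2), Csnk1a1, a kinase of the complex that degrades beta-catenin (0.03), and Axin1, its scaffold (-0.18). Of the repressors of Cdh1, Zeb1 stood at 290 CPM summed over moLCs and 259 CPM over eLCs, with a median of 194 and 274 CPM per cell, while Snai1 was read in 1 moLC and Snai2 and Twist1 in no cell. Itgb7, a chain of the integrin that binds E-cadherin, had a log2 ratio of 0.96, with 0.74 and 1.43 within the plates. None of these reached 2-fold in the same direction on both plates. When a read in 10% of the cells was enough, 3 genes of the list passed, along with 4.99% of all 9606 genes with that share. These were Nectin3, read in no moLC and 10.1% of eLCs, Itgae, the partner chain of Itgb7, with a log2 ratio of -1.13, and Zeb2, read in 15.5% of moLCs and 2.53% of eLCs.

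Levels of the members over cells were compared by Spearman rho within each of the 4 groups of origin and plate, and averaged by the number of cells. The cells of a group share plate and depth range, and rho is given without a p-value. Over the 28 pairs of the 8 genes with the share asked for, the median rho was 0.02 and the range -0.23 to 0.28, and over the 17925078 pairs of 5988 genes the median was 0.02 and 95% of pairs lay between -0.15 and 0.19. The median pair was thus like that of all genes, while some of the 28 pairs lay beyond the middle 95%, in both directions, and all of these are named below. The pairs of all genes were not matched to the members for level or share of cells, and the part of these was not tested. The members therefore did not vary over cells as 1 set. Epcam and Cdh1 gave 0.28, positive in all 4 groups (0.18 to 0.42). Cldn1 and F11r gave 0.25 but were -0.16 in eLCs of plate 1. Epcam was negative with Ctnna1 (-0.23, in all 4 groups) and with F11r (-0.23, in 3 of 4). Cdh1 with Ctnna1 (-0.20, negative in 3 of 4) and Cdh17 with F11r (-0.19, in all 4) were the other pairs beyond that range.

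Cdh1 gave a rho of 0.07 with Ctnnb1, 0.00 with Ctnnd1 and -0.20 with Ctnna1, and Tjp1 gave 0.13 with Cldn1 and -0.05 with F11r. No pair of binding partners within the cadherin complex or with ZO-1 thus lay above the middle 95% of all pairs, and that of Cdh1 and Ctnna1 lay below. Genes read per cell can move such values, and their own rho was 0.23 with Epcam, 0.19 with Cdh1 and -0.14 with Ctnna1. Its part in the pairs was not tested.

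**Figure D5:**
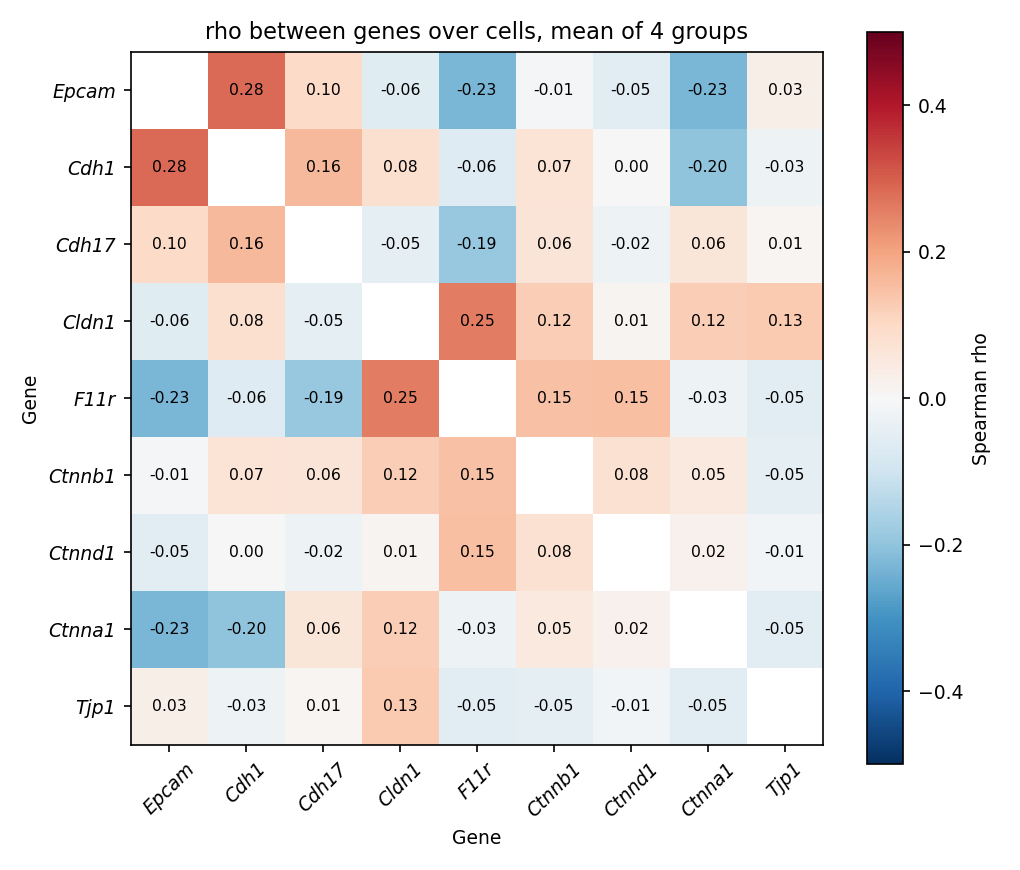
Spearman rho over cells for each pair of the 9 genes, as the mean of the 4 groups of origin and plate weighted by cells (colour scale from -0.5 to 0.5). Epcam with Cdh1 (0.28) and Cldn1 with F11r (0.25) are the highest, Epcam with F11r and with Ctnna1 (-0.23 each) the lowest.

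The genes most alike to each member were sought among the 5988 genes by the same measure, over 182 cells. For Cldn1 these were Cd207, the langerin gene (0.47, between 0.19 and 0.63 in the 4 groups), Antxr2 (0.44) and Ndrg1 (0.44). For Epcam they included Scimp (0.46, but 0.02 in eLCs of plate 1) and Tmem14c (0.41). For Cdh1 they were Coro1a (0.44, 0.28 to 0.65), Pkm (0.41) and Plp2 (0.35). Cldn1 and Epcam went opposite ways with Cd207, since Epcam gave -0.28 with it and was negative in 3 of 4 groups. Cd207 was itself 3.60 higher on the log2 scale in moLCs, and the rho values are within an origin.

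The other members had weaker neighbours. F11r was most like Ccl22 (0.37), Stat5a (0.36) and Mapkapk2 (0.35, but -0.18 in eLCs of plate 1). Ctnna1 was most like Fndc4 (0.36), Fgl2 (0.35) and Cytip (0.35). Ctnnb1 gave Sik3 (0.33), Actr1a (0.32) and Hadhb (0.32, but -0.004 in eLCs of plate 1). Tjp1 gave Ramac (0.37), Rnh1 (0.29) and Sec63 (0.28). For Cdh17 the highest were Gar1, Rabgap1l and Chfr, at 0.26 each. Each is among the top of 5988 values, and how high the top would lie for unrelated genes was not computed. None of the other 8 genes was among the 3 of any member.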

How the data were processed

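Single-cell cDNA was made by the authors with a Smart-Seq kit without molecular identifiers, and reads were aligned to mm10 with STAR. The deposited counts are raw reads per gene and cell, and 9 deposited values in 8 cells that were not whole were handled like estimated counts and rounded. The counting tool, its version and the annotation are not given in the sources used here. PCR copies are counted as reads. The members and gene lists were chosen with earlier results of these data known.

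Cells were grouped by the labelled origin and by the labelled plate, and 3 cells with over 5% mt- reads were left out. Reads were summed by origin and divided by total reads. For a ratio, 0 reads on 1 side counted as 3. Exact Poisson, Clopper-Pearson and binomial intervals are at 95%. The authors' Wilcoxon test on cells was not repeated. Named genes were the 9 members, the 3 highest per kb of each sub-list, wider-list genes past the rule, the 3 most alike genes per member and the genes labelled by the study. Other named genes should be taken as chosen after seeing values, also where this is not said in their place. Exon lengths and coordinates came from GENCODE M21, and promoter windows from RefSeq (GRCm38.p6). Doublets were not sought, since wells held single sorted cells. The size rule and rho were tested on simulated data. Python 3.11.15 with numpy 2.4.6, pandas 2.3.3, scipy 1.17.1 and matplotlib 3.10.9, and R 4.3.3 with edgeR 4.0.16 (TMM) were used. Alternatives were each plate alone, all deposited cells, at least 1000 genes per cell, equal weight per cell, TMM, totals without the 50 most read genes, thinning, other thresholds and single cells left out. A few genes of these lists are not reported here by name.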

Additional observations from a re-analysis of the deposited data

How the results depend on the processing

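Cdh17 and Tjp1 passed the size rule in all deposited cells, with at least 1000 genes per cell, with equal weight per cell, without the 50 most read genes, at 1.5-fold, and at any of the other shares of cells tried. The count of members that passed was 0 with TMM factors, 1 (Tjp1) after thinning, and 0 at 3-fold. Leaving out single cells gave a count of 1 to 2, with Cdh17 past the rule in 176 of 182 cases and Tjp1 in 179. Each plate alone gave 3, Cdh1, Cdh17 and Tjp1 on plate 1 and Cdh17, Ctnnd1 and Tjp1 on plate 2, where 12.2% and 12.6% of all genes passed. In the wider list 3 genes passed with a read in 10% of cells, where 4.99% of all genes did. In all cells under each setting, and on each plate alone with total reads, the log2 ratio of Cdh17 lay between -3.82 and -1.08. That of Tjp1 lay between -1.89 and -1.07. Within plates the other settings gave smaller gaps. Cdh17 within plate 2 was at -0.99 with TMM factors and -0.53 after thinning, and Tjp1 within plate 1 at -0.97 with TMM factors. With single cells left out these reached -0.75 and -0.76. With a minimum of 10 reads, 9.71% of moLCs and 49.4% of eLCs had Cdh17, and 33% and 55.7% had Tjp1. No paired analysis was possible because the labels name no animal and the comparison comes from no test. Ctnnd1 had the fewest reads of the 9, at 1084 in moLCs and 453 in eLCs.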
